A study of Solanum lycopersicum with 18 samples.

Results

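The genes described here are tomato (Solanum lycopersicum) glutathione S-transferases (GSTs) and proteins of thiol redox chemistry: glutathione peroxidase, glutaredoxins and thioredoxins. They were chosen by name, as every feature of the authors' table whose automatic description holds one of these family names, apart from the anthocyanin-transport GST Solyc02g081340. This gave 53 of the 5295 features, of which 38 are GSTs, 1 is a glutathione peroxidase, 6 are glutaredoxins and 8 are thioredoxins. Of the 38 GSTs 28 carry the same GST domain entry in their description, and 1 thioredoxin-related member, Solyc09g010480, carries no domain entry.

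The plants carry a dexamethasone (DEX) inducible system for Rosea1 and Delila, the MYB and bHLH regulators of anthocyanin synthesis from snapdragon. DEX is a synthetic glucocorticoid that switches such a system on. Messenger RNA was sequenced from callus, a mass of undifferentiated cells kept in culture, and from seedling roots, uninduced or 3 h or 24 h after induction with DEX at 10 mg/L, in 18 libraries that form 6 groups of 3. The uninduced groups carry the same system, each tissue has 1 uninduced group, and no labelled group combines DEX with plants that lack the transgenes. What DEX does by itself and what the 2 regulators do therefore cannot be told apart. The labels name neither the cultivar, the promoter nor the number of transgenic lines.

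The values are the authors' fold changes over uninduced tissue, 1 per gene and comparison, in 4 comparisons. Libraries were not analysed one by one here, so no replicate spread, depth, interval or test stands behind any difference given below. "Higher" and "lower" mean a fold of at least 2 in the authors' deposited table. The table holds features that the authors selected in at least 1 comparison, at 2-fold and a false discovery rate of 0.05, so family members that changed less are absent and a count is not a share of the whole family. A transcript level in bulk tissue also cannot tell fewer cells of a type from less RNA per cell.

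GSTs join glutathione, a small cysteine-containing peptide, to reactive or foreign molecules, which marks them for transport into the vacuole. Plants have large GST families, many of whose genes respond to stress, hormones and chemicals, and some GSTs bind flavonoids without conjugating them. Glutaredoxins use glutathione, and thioredoxins use electrons passed on by thioredoxin reductases, to reduce disulfide bonds in proteins. Glutathione peroxidases remove peroxides, and in plants they often draw on thioredoxin.

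At 3 h the members were more often higher and less often lower than the features of the table as a whole, in both tissues. In callus 26 of the 53 (49.1%) were higher, against a background of 27.8% of all features, and 4 (7.55%) were lower, against 23.4%. In roots 27 (50.9%) were higher, against 31.3%, and 16 (30.2%) were lower, against 44.6%. At 24 h the shares of higher members lay closer to those of the whole table. In callus 12 members (22.6%) were higher, against 18.0%, and 5 (9.43%) lower, against 21.5%. In roots 7 (13.2%) were higher, against 11.7%, and 7 (13.2%) lower, against 21.9%.

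The middle of the family moved in the same way. The median log2 fold of the members was 0.93 in callus and 1.03 in roots at 3 h, and 0.50 and 0.31 at 24 h. Over all features the median log2 fold was 0.00 in callus at both times, -0.58 in roots at 3 h and -0.13 in roots at 24 h. With the root 3 h folds taken relative to that shift, 33 members were higher and 7 lower, while 38.4% of all features were higher and 25.4% lower.

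**Figure D1:**
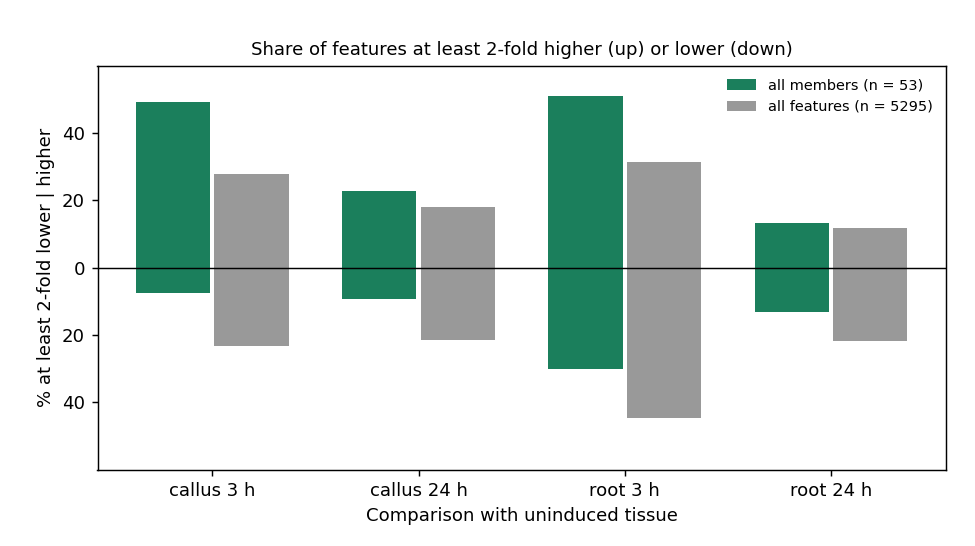
Percentage of the 53 members (green) and of all 5295 features (grey) that were at least 2-fold higher (bars above 0) or at least 2-fold lower (bars below 0) than uninduced tissue, by comparison. The green bars above 0 reach 49.1% in callus and 50.9% in roots at 3 h, against 27.8% and 31.3% for all features.

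**Figure D2:**
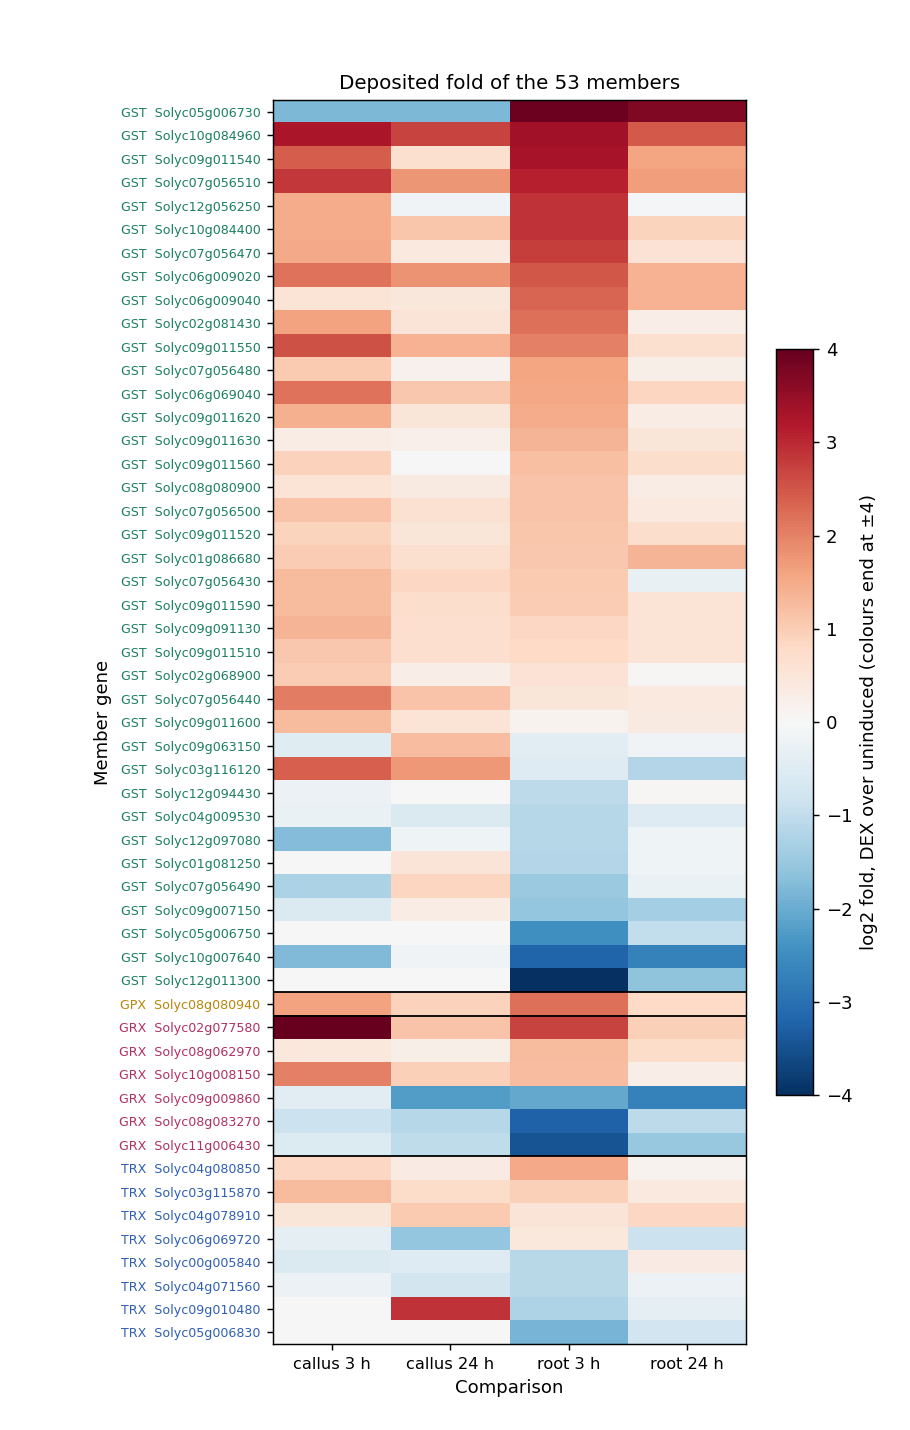
Log2 fold of each member in the 4 comparisons, red for higher and blue for lower than uninduced tissue, with glutathione S-transferases (GST), glutathione peroxidase (GPX), glutaredoxins (GRX) and thioredoxins (TRX) as blocks of rows sorted by the root 3 h fold. Most GST rows are red at 3 h and paler at 24 h, while the glutaredoxin rows split into 3 red and 3 blue at root 3 h.

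Most of the higher members were GSTs, as are 38 of the 53 members. In callus at 3 h 22 of the 38 GSTs (57.9%) were higher, against 27.8% of all features, and 4 (10.5%) lower, against 23.4%. In roots at 3 h 22 (57.9%) were higher, against 31.3%, and 9 (23.7%) lower, against 44.6%. Relative to the median of all features these root numbers were 26 and 3, against 38.4% and 25.4%. In callus at 24 h 9 (23.7%) were higher, against 18.0%, and 1 (2.63%) lower, against 21.5%. In roots at 24 h 7 (18.4%) were higher, against 11.7%, and 4 (10.5%) lower, against 21.9%. The median GST fold was 2.08 in callus and 2.14 in roots at 3 h, and 1.44 and 1.30 at 24 h.

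Of the members, 3 GSTs were at least 2-fold higher in each of the 4 comparisons. The share of all features that did so was not computed, so this count stands without a background. Solyc10g084960 was 9.63-fold higher after 3 h and 6.52-fold after 24 h in callus, and 10.3-fold higher in roots at 3 h and 5.42-fold at 24 h, as listed in the authors' deposited table. Solyc07g056510 is listed in the authors' deposited table with 7.04-fold at 3 h and 3.38-fold at 24 h for callus, and 8.66-fold and 3.20-fold for roots. Solyc06g009020 stood at 4.55-fold and 3.45-fold in callus and at 5.56-fold and 2.60-fold in roots as listed in the authors' deposited table. The 3 h fold was the larger of each pair for all 3 genes. The times of a tissue share their uninduced libraries, so these pairs are not independent of each other.

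Other GSTs had much larger root folds at 3 h than at 24 h. In roots Solyc12g056250 went from 7.47-fold higher at 3 h to 1.05-fold lower at 24 h, and in callus from 2.81-fold higher to 1.10-fold lower, as listed in the authors' deposited table. The microsomal GST Solyc02g081430, of a membrane-bound family unrelated in domain to the other GSTs, was 3.04-fold higher in callus and 4.61-fold in roots at 3 h, and 1.44-fold and 1.20-fold at 24 h, as listed in the authors' deposited table. Solyc10g084400 stood at 7.44-fold in roots at 3 h and at 1.87-fold at 24 h, while in callus it was higher at both times, by 2.81-fold and 2.17-fold, as listed in the authors' deposited table. These 3 genes were picked out after their values were seen.

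Many of the GSTs have neighbouring identifiers. In tomato gene-model names the first digits give the chromosome and the last ones the order along it, and 20 of the 38 GSTs fall into 4 runs of GSTs whose numbers lie at most 100 apart. The runs were defined after the values were seen. The longest, on chromosome 9, holds 9 members from Solyc09g011510 to Solyc09g011630, and the next, on chromosome 7, holds 7 from Solyc07g056430 to Solyc07g056510. No other feature of the table lies within either range. Copies that sit side by side can be close in sequence, and how the authors' software assigned reads shared between copies is not stated in the sources used here, so folds within a run may be partly mixed.

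The chromosome 9 run went one way throughout. In callus at 3 h 6 of its 9 genes (66.7%) were higher and 0 lower, against 27.8% and 23.4% of all features. In roots at 3 h 7 (77.8%) were higher and 0 lower, against 31.3% and 44.6%. The size of the fold varied along it. Solyc09g011540 was 5.35-fold higher in callus and 9.91-fold in roots at 3 h, and 1.57-fold and 2.97-fold at 24 h, as listed in the authors' deposited table. Solyc09g011550 stood at 5.79-fold and 4.06-fold at 3 h, and at 2.60-fold and 1.55-fold at 24 h, as listed in the authors' deposited table. At the other end of the range, the authors' deposited table gave Solyc09g011600 2.41-fold in callus and 1.11-fold in roots at 3 h, and Solyc09g011630 1.23-fold and 2.59-fold. At 24 h 1 of the 9 (11.1%) was higher in each tissue, Solyc09g011550 in callus and Solyc09g011540 in roots. This share was below the 18.0% of all features in callus and near the 11.7% in roots. The descriptions of all 9 cite the same tomato protein as their closest match, and so does that of Solyc10g084960, the member with the highest GST folds in callus.

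On chromosome 7 a single gene went against its run. In callus at 3 h 6 of the 7 genes (85.7%) were higher, against 27.8% of all features, and in roots 5 (71.4%) were, against 31.3%. Solyc07g056490 was 2.38-fold lower in callus and 2.81-fold lower in roots at 3 h as listed in the authors' deposited table. Relative to the median of all features its root 3 h log2 fold was -0.91, short of 2-fold, so that 0 genes of the run were then lower in roots. Its immediate neighbours by number, Solyc07g056480 and Solyc07g056500, were 2.06-fold and 2.19-fold higher in callus and 3.02-fold and 2.21-fold higher in roots at that time, as listed in the authors' deposited table. By 24 h Solyc07g056490 stood 1.82-fold above uninduced callus and 1.21-fold below uninduced root as listed in the authors' deposited table. Its callus fold after 24 h was 4.33 times the fold after 3 h, a ratio in which the shared uninduced level cancels. Within the same run Solyc07g056470 reached 6.83-fold in roots at 3 h and 1.51-fold at 24 h as listed in the authors' deposited table.

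**Figure D3:**
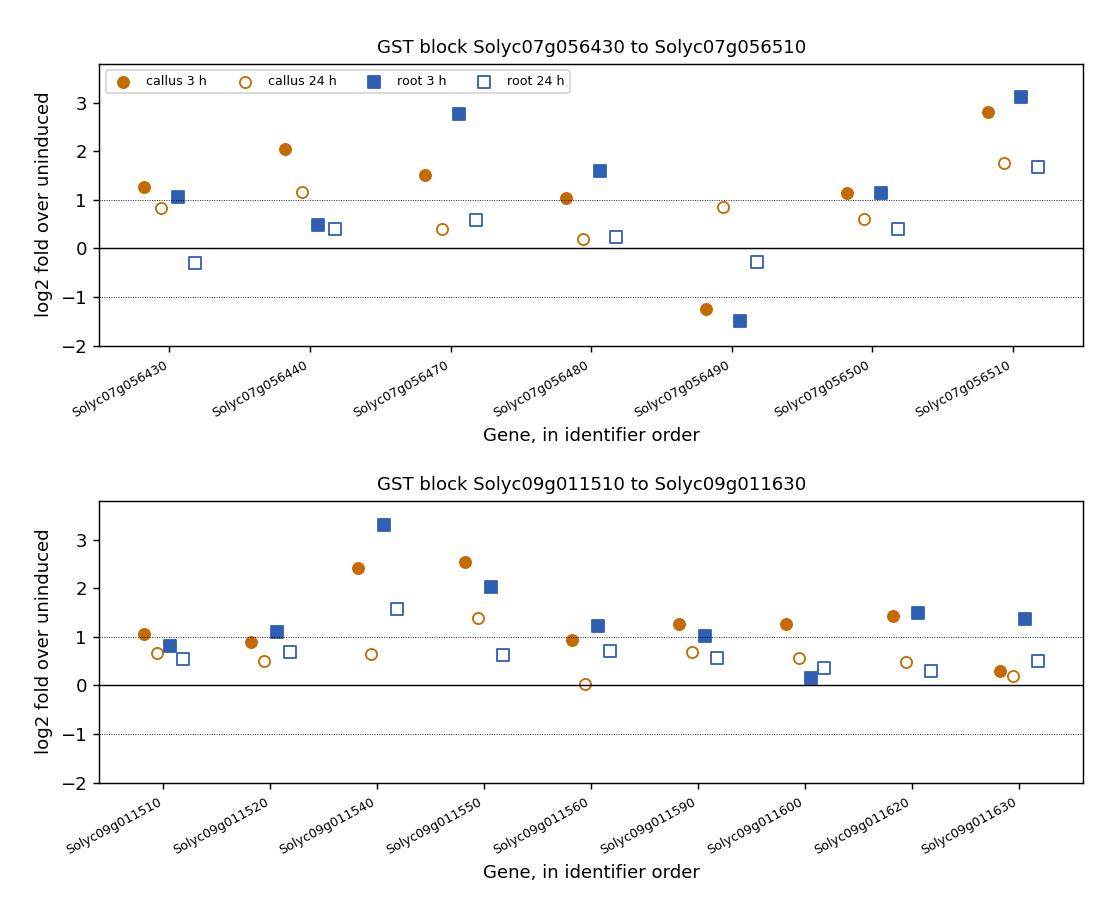
Log2 fold of each gene in the 2 longest runs of neighbouring GSTs, in identifier order, with circles for callus and squares for roots, filled at 3 h and open at 24 h, and dotted lines at 2-fold. All points of the chromosome 9 run lie above 0, and Solyc07g056490 is the gene of the chromosome 7 run that lies below the lower dotted line at 3 h in both tissues.

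Before centring, GSTs outside the runs lay near the background in roots at 3 h. Of these 18 genes 7 (38.9%) were higher and 7 (38.9%) lower, against 31.3% and 44.6% of all features. Of the 20 in runs 15 (75.0%) were higher and 2 (10.0%) lower. Relative to the median of all features the 18 held 9 higher and 2 lower genes, and the 20 held 17 and 1. The background was then 38.4% and 25.4%, so the 18 were less often lower than it. In callus at 3 h the 18 held 9 (50.0%) higher and 2 (11.1%) lower genes, and the 20 held 13 (65.0%) and 2 (10.0%). All features there had 27.8% higher and 23.4% lower.

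The lowest GST folds were found in roots. Solyc12g011300 was 25.1-fold lower in roots at 3 h and 3.02-fold lower at 24 h as listed in the authors' deposited table, which lists it at a fold of exactly 1 in callus at both times. Solyc10g007640 was 3.42-fold lower in callus and 9.27-fold lower in roots at 3 h, and 1.11-fold and 6.51-fold lower at 24 h, as listed in the authors' deposited table. Its description cites the same tomato protein as 4 genes of the chromosome 7 run, which were 2.06-fold to 4.15-fold higher in callus at 3 h as listed in the authors' deposited table. The genes that cite this protein thus went in both directions. Of the 10 that cite the protein of the chromosome 9 run, mostly the genes of that run, 0 were lower in any comparison. The share of all features lower in no comparison was not computed, and the grouping by cited protein was not set in advance. Solyc12g097080 was 3.33-fold lower in callus at 3 h and 1.13-fold lower at 24 h, with 2.18-fold and 1.14-fold lower in roots, as listed in the authors' deposited table. Relative to the median of all features, the root 3 h fold of Solyc12g097080 no longer reached 2, at a log2 fold of -0.55.

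Only a few members went in opposite directions in the tissues. The GST with the highest root folds, Solyc05g006730, was 15.0-fold higher in roots at 3 h and 13.2-fold at 24 h, and 3.45-fold lower in callus at both times, as listed in the authors' deposited table. Its callus folds are identical to the 3 deposited decimals, and whether such folds rest on few reads was not tested. Folds that repeat in this way or equal exactly 1 were found for 538 features in callus and 48 in roots, and among the members for 5 in callus and 0 in roots. The gene beside it by number, Solyc05g006750, was 5.49-fold lower in roots at 3 h and 1.98-fold lower at 24 h, with exactly 1 in callus at both times, as listed in the authors' deposited table.

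The other opposite case was Solyc03g116120, which stood above uninduced callus by 5.26-fold at 3 h and 3.34-fold at 24 h, against 1.42-fold and 2.25-fold lower in roots, as listed in the authors' deposited table. Relative to the median of all features its root log2 folds were 0.07 at 3 h and -1.03 at 24 h, the latter barely past 2-fold. At 3 h 1 of the 53 members (1.89%) was at least 2-fold higher in one tissue and at least 2-fold lower in the other, beside 3.66% of all features. At 24 h it was 2 (3.77%), beside 1.91%. Without genes whose folds repeat or equal exactly 1, which leaves out Solyc05g006730, 0 of 48 members remained at 3 h and 1 (2.08%) at 24 h, beside 3.51% and 1.42% of all features left. These differences between tissues were not tested here.

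Callus and roots otherwise shared many of the higher members at 3 h. The 19 members higher in both were 73.1% of those higher in callus and 70.4% of those higher in roots. For all features, 15.5% of which were higher in both, the shares were 55.9% and 49.7%. At 24 h 3 of the 53 members were higher in both tissues, beside 6.52% of all features. They made up 25.0% of the callus and 42.9% of the root members, with 36.1% and 55.7% for all features. At 3 h 3 members were lower in both tissues, where the background was 13.7%. They made up 75.0% of the 4 in callus and 18.8% of the 16 in roots, and for all features the shares were likewise uneven, at 58.6% and 30.8%. At 24 h 3 of the 53 members were lower in both tissues, beside 10.6% of all features. Across the 53 genes, which do not count as replicates, callus and root log2 folds at 3 h gave a Pearson's r of 0.65 with a Spearman's rho of 0.69, and those at 24 h gave 0.36 and 0.48. The values over all features were 0.53 and 0.54 at 3 h, and 0.56 and 0.58 at 24 h.

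**Figure D4:**
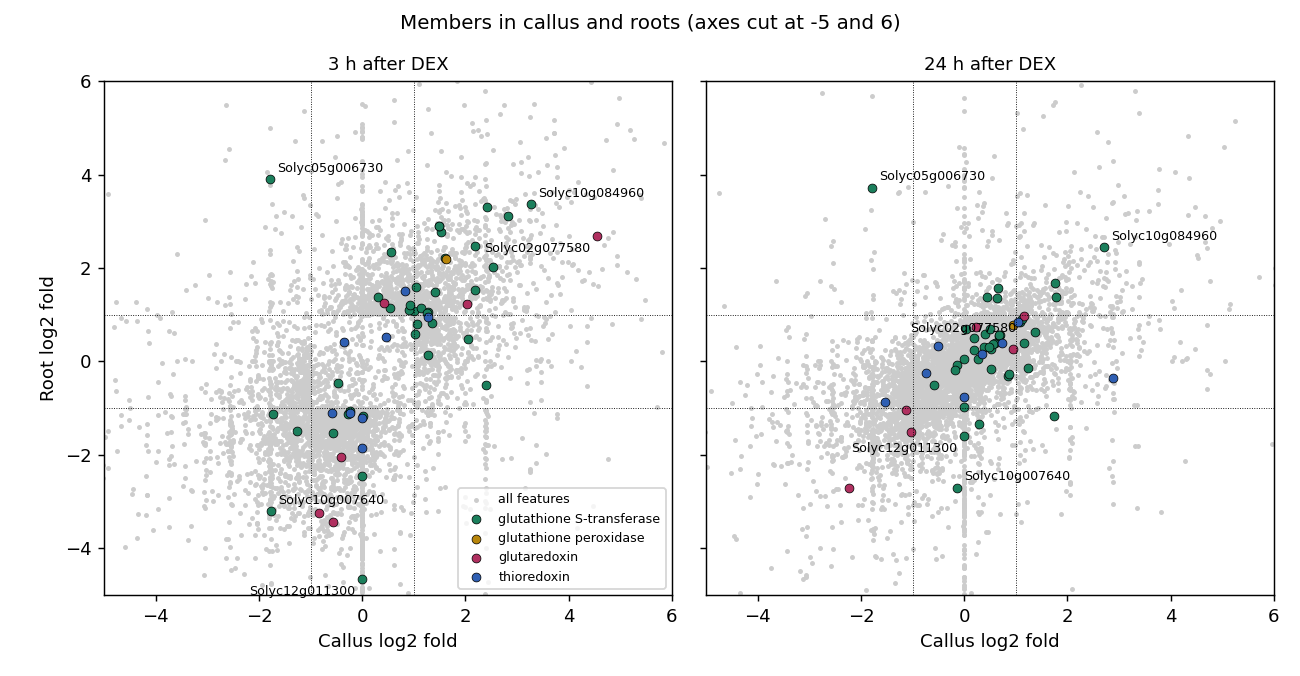
Log2 fold in roots against log2 fold in callus at 3 h (left) and 24 h (right), with members coloured by family over all features in grey and dotted lines at 2-fold. At 3 h 19 members lie in the upper right corner beyond both lines, and Solyc05g006730 stands alone among the members in the upper left at both times.

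The single glutathione peroxidase, Solyc08g080940, moved with most GSTs. It was 3.08-fold higher in callus and 4.58-fold in roots at 3 h, and 1.91-fold and 1.72-fold at 24 h, as listed in the authors' deposited table. The fold was thus under 2 in both tissues by 24 h.

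The 6 glutaredoxins divided by their description. The 3 named plainly as glutaredoxin had folds above 1 in each comparison, and the 3 named as glutaredoxin family protein had folds below 1 in each. Of the former, Solyc02g077580 had the highest fold of any member in callus at 3 h. It was 23.5-fold higher there and 2.22-fold at 24 h, and 6.47-fold in roots at 3 h and 1.96-fold at 24 h, as listed in the authors' deposited table. Its callus fold at 3 h was 10.6 times that at 24 h, and its root fold 3.31 times. Solyc10g008150 stood at 4.07-fold in callus and 2.35-fold in roots at 3 h as listed in the authors' deposited table, and Solyc08g062970 at 1.35-fold and 2.39-fold.

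Of the 3 family proteins, 2 had their lowest fold in roots at 3 h. Solyc11g006430 was 10.9-fold lower there and 2.86-fold lower at 24 h, and 1.48-fold and 2.04-fold lower in callus, as listed in the authors' deposited table. Solyc08g083270 was 9.50-fold lower in roots at 3 h and 2.07-fold at 24 h, and 1.80-fold and 2.19-fold lower in callus, as listed in the authors' deposited table. Solyc09g009860 took another course, with 4.15-fold lower at 3 h and 6.56-fold lower at 24 h in roots and 1.33-fold and 4.70-fold lower in callus, as listed in the authors' deposited table. Its fold was therefore farther from 1 at 24 h in both tissues, while the other 2 came closer to 1 in roots. All 3 stayed at least 2-fold lower at root 3 h relative to the median of all features, but Solyc08g083270 did not at root 24 h, with a log2 fold of -0.91.

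Few thioredoxins passed 2-fold outside roots at 3 h. In callus at 3 h 1 of the 8 (12.5%) was higher and 0 lower, against 27.8% and 23.4% of all features. In callus at 24 h 2 (25.0%) were higher and 1 (12.5%) lower, against 18.0% and 21.5%. In roots at 3 h 1 (12.5%) was higher, against 31.3%, and 4 (50.0%) were lower, near the background of 44.6%. The direction turned to 3 higher and 1 lower relative to the median of all features. At 24 h 0 passed 2-fold in either direction in roots, against 11.7% higher and 21.9% lower of all features. Solyc04g080850 was 2.85-fold higher in roots at 3 h and 1.11-fold at 24 h, and Solyc03g115870 in callus was 2.41-fold higher at 3 h and 1.66-fold at 24 h, as listed in the authors' deposited table. Solyc04g078910, named thioredoxin-like 2, stood between 1.38-fold and 2.07-fold in all comparisons as listed in the authors' deposited table.

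Among the lower thioredoxins, Solyc05g006830, named as thioredoxin H, a mostly cytosolic type, was 3.62-fold lower in roots at 3 h and 1.70-fold at 24 h as listed in the authors' deposited table, with exactly 1 in callus. Solyc06g069720 was 2.91-fold lower in callus at 24 h, after 1.27-fold lower at 3 h, and in roots went from 1.33-fold above to 1.82-fold below the uninduced level, as listed in the authors' deposited table. Solyc00g005840 was 2.15-fold lower in roots at 3 h and 1.25-fold above uninduced at 24 h as listed in the authors' deposited table, and relative to the median of all features its root 3 h log2 fold was -0.52. The thioredoxin-related Solyc09g010480 had the highest fold of any member in callus at 24 h, 7.41-fold, with exactly 1 at 3 h, as listed in the authors' deposited table. It is thus among the 5 members with exact or repeated callus folds, and whether its callus folds rest on few reads was not tested. In roots it was 2.33-fold lower at 3 h and 1.28-fold at 24 h as listed in the authors' deposited table, a log2 fold of -0.64 at 3 h relative to the median of all features.

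**Figure D5:**
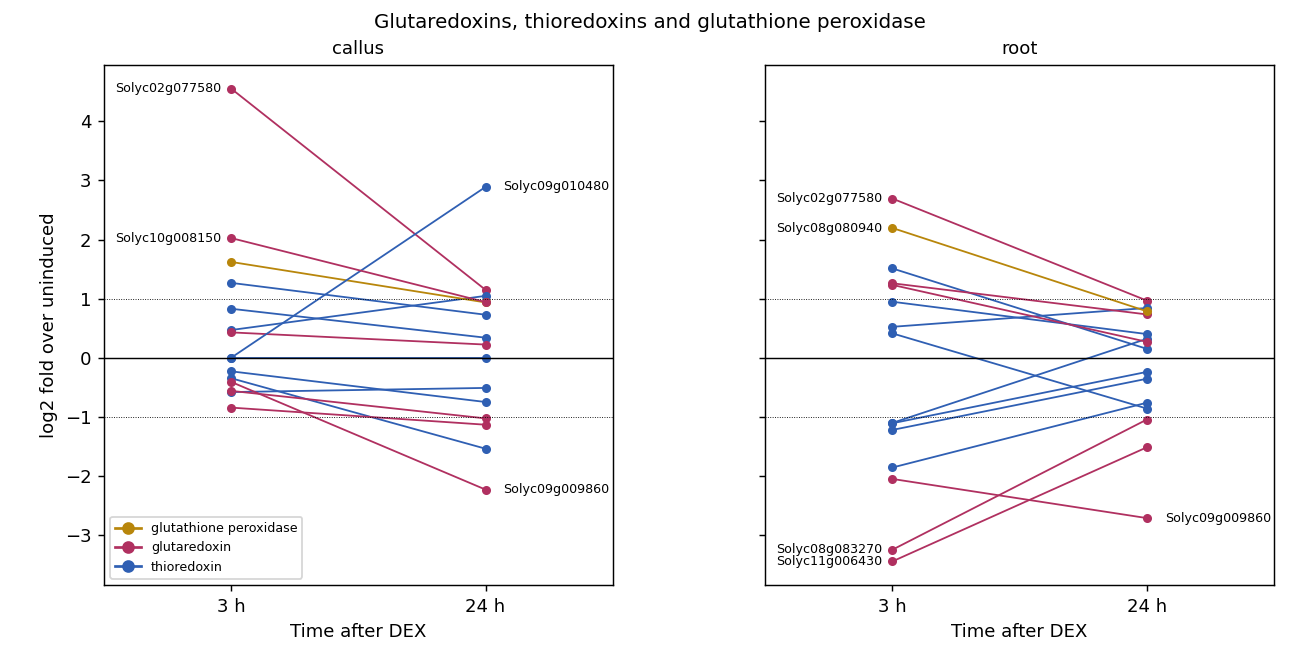
Log2 fold at 3 h and 24 h of the 15 members that are not GSTs, in callus (left) and roots (right), with 1 line per gene coloured by family and dotted lines at 2-fold. Solyc02g077580 starts highest in both tissues and ends near the upper dotted line, and Solyc09g009860 ends lowest in both.

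The members as a group stood lower at 24 h than at 3 h. The median 24 h to 3 h ratio was 0.72 in callus and 0.69 in roots, where all features had 0.94 and 1.04. In callus 11 members (20.8%) were at least 2-fold lower at 24 h than at 3 h, against 19.8% of all features, and 5 (9.43%) at least 2-fold higher, against 15.0%. In roots 15 (28.3%) were at least 2-fold lower, against 23.0%, and 9 (17.0%) higher, against 26.0%. The shares of members past 2-fold down thus lay near the background in callus. These ratios compare the induced times directly, since the uninduced level cancels, and root ratios carry the difference between the medians of the root columns. Among the 9 that came up in roots were the 2 lowest glutaredoxins, with ratios of 4.60 for Solyc08g083270 and 3.81 for Solyc11g006430, and the lowest GST, Solyc12g011300, with 8.32.

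Glutathione is made from cysteine, whose sulfur comes from sulfate taken up and reduced by the cell. The table holds 1 gene of the list of glutathione synthesis and recycling, the glutathione synthetase Solyc01g098610, which makes glutathione in the last step. It was 2.28-fold higher in callus at 3 h and between 1.14-fold and 1.27-fold in the other comparisons, as listed in the authors' deposited table.

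Some genes of sulfate uptake and cysteine synthesis had folds far from 1 at 3 h, in both directions. Of the 23 in this list 11 (47.8%) were higher in 3 h callus, against 27.8% of all features, and 5 (21.7%) lower, near the background of 23.4%. In 3 h roots 11 (47.8%) were higher, against 31.3%, and 9 (39.1%) lower, against 44.6%, or 12 and 3 relative to the median of all features. At 24 h 4 (17.4%) were higher in callus, near the background of 18.0%, and 2 (8.7%) lower, against 21.5%. In roots at 24 h 1 (4.35%) was higher, against 11.7%, and 2 (8.7%) were lower, against 21.9%. One of the 23, Solyc01g091840, is named as a phosphoadenosine phosphosulfate transporter and was taken in by the matching of words, and without it roots at 3 h had 10 higher and 9 lower genes. The high affinity sulfate transporter Solyc04g072760, which takes sulfate into cells, was 11.3-fold higher in roots at 3 h and 7.57-fold at 24 h, and 5.14-fold and 2.08-fold higher in callus, as listed in the authors' deposited table. Another, Solyc06g084140, was 13.0-fold lower in roots at 3 h and 2.87-fold at 24 h, and 1.02-fold and 1.63-fold lower in callus, as listed in the authors' deposited table. Genes named as high affinity sulfate transporters thus went both ways.

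Enzymes that activate and reduce sulfate differed among themselves at 3 h. These 8 genes, grouped after their values were seen, held 5 (62.5%) higher and 0 lower in callus, against 27.8% and 23.4% of all features. In roots they held 4 (50.0%) higher and 3 (37.5%) lower, against 31.3% and 44.6%, or 5 and 0 relative to the median of all features. The sulfate adenylyltransferase Solyc03g005260, of the first step, was 4.16-fold higher in callus and 3.00-fold in roots at 3 h, and 1.35-fold and 1.30-fold at 24 h, as listed in the authors' deposited table. The reductases Solyc02g032860 and Solyc02g080640, named for phosphoadenosine phosphosulfate, were higher at 3 h, by 3.81-fold and 5.31-fold for callus and by 5.10-fold and 3.91-fold for roots, as listed in the authors' deposited table. The 3 lower in roots were the adenylyl-sulfate kinases Solyc02g092410 and Solyc10g080680, which add a further phosphate to activated sulfate, and a protein with a phosphoadenosine phosphosulfate reductase domain, Solyc10g083960. They were 2.60-fold, 2.40-fold and 2.42-fold lower there at 3 h, and 1.87-fold, 1.35-fold and 1.20-fold lower in callus, as listed in the authors' deposited table. The 4 cysteine synthases, which make the amino acid itself, held 0 higher and 2 (50.0%) lower genes in callus at 3 h. In roots at 3 h they held 1 (25.0%) higher and 2 (50.0%) lower, near the background, and 0 stayed lower relative to the median of all features.

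Enzymes that make or remove reactive oxygen, or repair its damage, were mostly higher in roots at 3 h. Of the 12 in that list 9 (75.0%) were higher there, against 31.3% of all features, and 2 (16.7%) were lower, against 44.6%. In callus at 3 h 5 (41.7%) were higher and 1 (8.33%) lower, against 27.8% and 23.4%. At 24 h 3 (25.0%) were higher and 1 (8.33%) lower in callus, against 18.0% and 21.5%. In roots at 24 h 0 were higher and 2 (16.7%) lower, against 11.7% and 21.9%. The respiratory burst oxidase Solyc05g025690, of a family that makes superoxide outside the cell, was 8.59-fold higher in roots at 3 h and 1.80-fold at 24 h, and 3.19-fold and 1.88-fold lower in callus, as listed in the authors' deposited table. A relative, Solyc06g075570, was 8.73-fold and 12.6-fold lower in roots, and 1.68-fold and 1.35-fold above uninduced in callus, as listed in the authors' deposited table. The 3 methionine sulfoxide reductases repair oxidised methionine with thioredoxin as a usual electron donor. All 3 were higher in roots at 3 h, against 31.3% of all features, and 2 (66.7%) were higher in callus, against 27.8%. At 24 h 1 was higher and 0 lower in callus, against 18.0% and 21.5%. In roots at 24 h 0 were higher and 1 lower, Solyc02g063250 at 3.27-fold lower, against 11.7% and 21.9%.

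Partners in protein disulfide chemistry, nucleoredoxins and protein disulfide isomerases, numbered 5. In callus at 3 h 0 of the 5 were higher and 3 lower, against 27.8% and 23.4% of all features. In roots at 3 h 2 of the 5 were higher and 1 lower, against 31.3% and 44.6%. Relative to the median of all features these root numbers were 2 and 0, against 38.4% and 25.4%. Nucleoredoxin Solyc04g081900, a thioredoxin-like protein, was 4.25-fold higher in roots at 3 h and within 1.06-fold of the uninduced level in the other comparisons, as listed in the authors' deposited table. Protein disulfide isomerase Solyc05g018700, which helps secreted proteins to fold, was 2.76-fold lower in roots at 3 h and 1.64-fold lower in callus as listed in the authors' deposited table.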

How the data were processed

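Per the labels' protocols, libraries were stranded, made from polyadenylated RNA and sequenced from both ends on an Illumina HiSeq. The submitters' processing notes name CASAVA 1.8.1. Per the file headers, the authors deposited signed fold changes from CLC bio software for 4 comparisons, treated here as a signed score in which a minus marks a reduction, and the same folds written as a linear ratio. The headers name no reference group, which was taken to be uninduced tissue because both transgenes stood far above 1. No source used here gives the aligner, the genome build, how reads were counted or how values were normalized. Whether replicates came from separate plants or cultures is not in the labels.

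Both deposited files hold the same folds, with a largest difference of 0. From these, log2 folds, counts past 2-fold, medians and ratios were computed (Python 3.11.15, pandas 2.3.3, numpy 2.4.6, scipy 1.17.1; plots with matplotlib 3.10.9) and the code was checked on simulated folds. The count and log-scale tests of the design need values per library and were not run. No identifier was found in the supplied RefSeq gene table (0 matches), so positions and sequences are not given.

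The members, the 4 lists of partner genes and the naming rule were chosen with earlier results of these data known. The rule names the 4 highest and 3 lowest members of each comparison, members 2-fold away in all comparisons or opposite between tissues or times, the extremes of each family, and the extremes of each list at root 3 h. It named 22 members. Genes outside it were named after their values were seen. Alternatives were a 4-fold threshold, centring on the median of all features, and leaving out exact or repeated folds.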

Additional observations from a re-analysis of the deposited data

How the results depend on the processing

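Of the 8 counts of higher and lower members by comparison, all 8 stayed within 1.5 times without members whose folds equal exactly 1 or repeat. The root counts could not move in this check, since 0 members had such folds in roots. With each comparison centred on the median of all features, 7 of the 8 stayed within 1.5 times. The exception was the number lower at root 3 h, which went from 16 to 7. The callus counts could not move on centring, since both callus medians are 0.00. A 4-fold threshold, stricter by construction, left 10 higher and 0 lower of the 53 members in 3 h callus, and 2 and 1 in 24 h callus. In roots it left 13 and 6 at 3 h, and 2 and 2 at 24 h. Of all 5295 features it left 560 higher and 351 lower in 3 h callus, and 351 and 318 in 24 h callus. For roots these numbers were 601 and 902 at 3 h, and 230 and 384 at 24 h. Of 88 folds of the members named by the rule, 81 stayed on their side of 2-fold when centred. Another 4 dropped under it, 3 came past it and 0 called folds changed sign. The callus folds among the 88 could not change in this way, and every change was in roots. The numbers of members opposite between tissues, 1 at 3 h and 2 at 24 h, stayed so when centred, fell to 0 and 1 without exact or repeated folds, and to 0 and 0 at 4-fold. These alternatives for the opposite members were chosen after seeing the data. No paired analysis was possible because values per library were not analysed here, and leaving out each replicate was not run for the same reason. Depth and replicate spread are unknown, so the precision of every fold is too.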

Other observations

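Of the features outside the members, 6 hold one of the family words only in the domain part of their description. Besides 3 phosphoadenosine phosphosulfate reductases, a nucleoredoxin and a protein disulfide isomerase, these include the DSBA oxidoreductase Solyc12g094380, named for a bacterial enzyme that forms disulfide bonds. It stood 1.59-fold above uninduced callus at 3 h and 1.42-fold below it at 24 h, and 2.04-fold below uninduced root at 3 h and 1.20-fold above it at 24 h, as listed in the authors' deposited table.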
